A study of Mus musculus with 6 samples.

Results

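The sarcomere, Z-disc and M-band gene set held 38 named structural and assembly genes, taken by their symbols from the 37979 genes of an RNA-seq table of mouse gastrocnemius (GAS) muscle. All 38 symbols were found, each on 1 entry, and all 38 passed the filter on low values. The libraries came from 3 male Kvβ2 knockout (KO) mice and 3 age-matched male wildtype (WT) mice, 20 weeks of age. The mice were bred from heterozygous Kvβ2 parents, with 1 library per mouse and no treatment. The KO allele is a constitutive null of *Kcnab2*, which encodes the voltage-gated potassium channel subunit Kvβ2, so every cell of the muscle and of the animal carried it. The mice of each genotype were numbered 1, 7 and 8. The comparison addressed which structural muscle genes differed in transcript level between the genotypes.

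The sarcomere is the contractile unit of striated muscle. Thin filaments of actin are anchored end to end in the Z-disc, thick filaments of myosin are held in register by the M-band, and titin spans from the one to the other. Desmin filaments link neighbouring Z-discs and tie them to the membrane at sites called costameres. Many of these proteins exist as related copies used in fast or slow fibers, and mouse GAS is made mostly of fast fibers with some slow ones.

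Levels are given as FPKM, in which the fragments of a gene are divided by transcript length and by the mapped total of the library, so that genes can be compared per length. The 6 libraries held an estimated 13940000 to 20100000 fragments, and each KO library was less deep than each WT library. The lowest value of any of the 36 genes that were above 0 throughout rested on about 112 fragments (*Mybph* in WT replicate 8). Counting error was not set beside the spread between mice gene by gene. Fold changes are differences of log2(FPKM + 0.1), KO minus WT, tested with limma over 12334 genes with Benjamini-Hochberg adjustment. Single values were tested by a two-sided exact permutation test, which cannot give a p under 0.1 with 3 against 3 libraries. *Kcnab2* itself measured 0.233, 0.10 and 0.110 FPKM in WT mice 1, 7 and 8, against 0, 0.0151 and 0 FPKM in the KO mice of those numbers (exact permutation test, p = 0.1). The muscle identity of the tissue was clear from fast fiber genes, whose summed level was 54878 to 73529 FPKM in WT and 53399 to 74129 FPKM in KO libraries. Among these, *Myh4*, *Atp2a1* and *Tnnt3*, which are abundant in fast fibers, were listed at 0 in all 6 libraries, so a 0 in this table can be a failed estimate and not an absent transcript.

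Only 2 of the 38 genes passed the limma test at an adjusted p under 0.05, *Tpm1* and *Ttn*, both higher in KO. Over all 12334 genes tested, 0.251% were called higher and 0.073% lower. Both calls rested on 0 values. *Tpm1* (ENSMUSG00000032366; chromosome 9, 67022590 to 67049406, minus strand, GRCm38) encodes a tropomyosin of fast fibers, and *Ttn* (ENSMUSG00000051747; chromosome 2, 76703980 to 76982547, minus strand) encodes titin. *Tpm1* was listed at 0 in WT mice 1, 7 and 8 and at 19415, 14651 and 18681 FPKM in KO mice 1, 7 and 8. *Ttn* was listed at 0 in the 3 WT libraries and at 188, 151 and 189.8 FPKM in the KO libraries. No fold change is given for a gene listed at 0 in a whole group, and whether these WT values are failed estimates was not tested. In the same WT libraries the titin cap *Tcap* was at 760.0 to 1178 FPKM and the nebulin gene *Neb* at 1888 to 2131 FPKM. The tropomyosin genes are paralogs, and the sources used here do not say how fragments that match several genes were divided.

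The other 36 genes were above 0 in every library and none was called. The lowest adjusted p was 0.0667, for *Tcap*. By the sign of the fold change 26 were higher and 10 lower in KO, or 72.2% higher against 51.5% of all tested genes above 0 in every library. The KO libraries all lay above the WT libraries for 10 of the 36 (27.8%) and all below for 5 (13.9%), where 18.5% and 16.4% of all 12092 such genes did so. At an unadjusted p under 0.05, 10 were higher (27.8%) and 3 lower (8.33%), beside 15.5% and 10.8% of all genes. The median fold change was 0.23 on the log2 scale, beside 0.014 for all genes. Leaving out WT replicate 8 brought it to 0.12, and leaving out WT replicate 1 to 0.13.

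**Figure D1:**
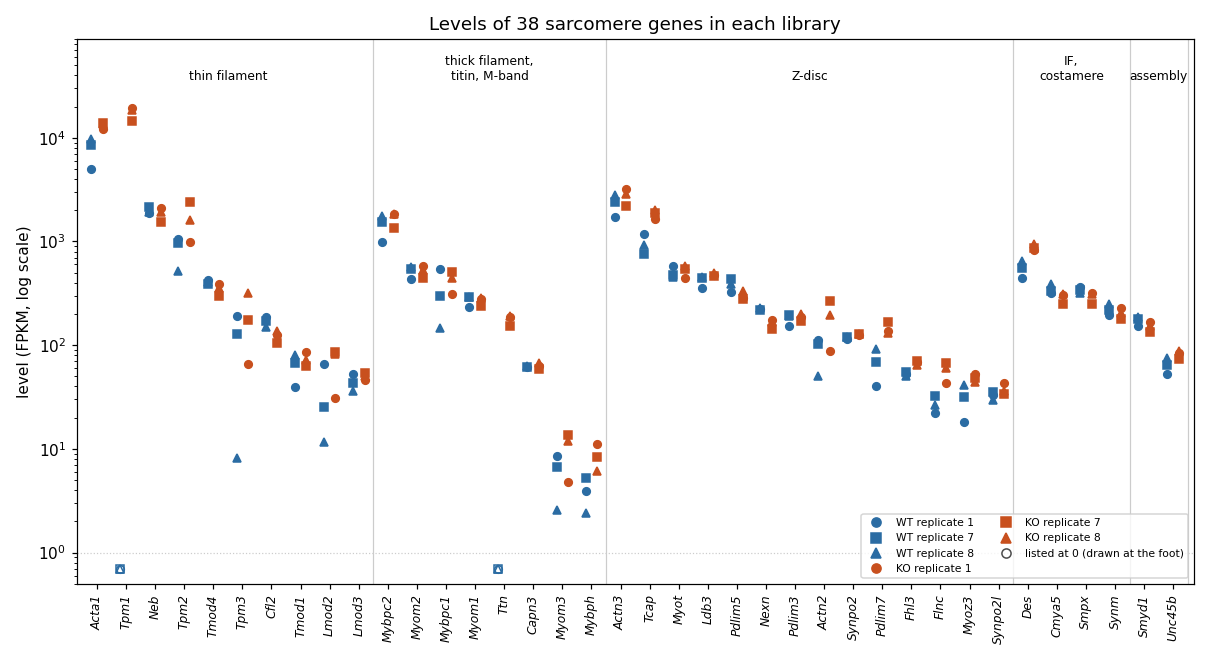
Level of each of the 38 genes in each library, in FPKM on a log axis, ordered by role and by mean level. Blue symbols are WT and orange symbols KO libraries, the shape gives the replicate number, and open symbols at the foot mark *Tpm1* and *Ttn*, listed at 0 in the 3 WT libraries.

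The thin filament held 10 of the genes: skeletal actin, tropomyosins, nebulin, the capping and elongating factors of the pointed end, and cofilin. Apart from *Tpm1*, 6 were higher and 3 lower by sign, with a median of 0.30 on the log2 scale that came to 0.082 without WT replicate 8. *Acta1* (chromosome 8, 123891769 to 123894751, minus strand), the skeletal muscle actin, was at 5029, 8435 and 9656 FPKM in WT mice 1, 7 and 8 against 12044, 13917 and 13703 FPKM in KO mice 1, 7 and 8. Each KO library exceeded each WT library, and WT replicate 1 was the lowest. The mean was 7706 ± 2398 FPKM in WT and 13222 ± 1025 FPKM in KO (SD, n = 3), and the log2 fold change of 0.83 ± 0.24 (SE) did not pass (adjusted p = 0.104). *Cfl2*, which severs and recycles actin filaments, was at 189, 172 and 150.0 FPKM in WT and at 126, 106 and 135 FPKM in KO. The KO values were all lower, by 0.48 ± 0.14 on the log2 scale, without passing the test (adjusted p = 0.0993). *Tmod4*, a tropomodulin that caps the pointed end of the thin filament, was at 426, 393 and 406 FPKM in WT and at 389, 298 and 357 FPKM in KO. Its KO libraries also lay below the WT libraries, the nearest by only a few FPKM (log2 fold change -0.24 ± 0.13, adjusted p = 0.263). *Neb*, the nebulin that runs along the thin filament, ranged from 1541 to 2131 FPKM over both genotypes, and the groups overlapped. The groups overlapped as well for *Tmod1*, *Tpm2*, *Tpm3*, *Lmod2* and *Lmod3*, the last a leiomodin at 36.5 to 54.4 FPKM.

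A start-site window was read for 30 of the 38 genes (36 windows of 300 bases, from 250 bases before to 50 after the start; RefSeq, GRCm38.p6), because muscle structural genes are known to share short promoter motifs. Searched on both strands were the CArG box of serum response factor, the MEF2 box, CATTCC (the core of the MCAT element), CAGCTG (an E-box of myogenic factors) and TATAAA, and a MEF2 box can overlap TATAAA. The CArG box was in 11.1% of the windows of these genes and in 1.63% of all 32851 windows. The MEF2 box was in 16.7% and 3.19%, CAGCTG in 30.6% and 16.3%, CATTCC in 25.0% and 14.7%, and TATAAA in 13.9% and 13.6%. *Acta1*, *Ldb3* and *Myom1* held the CArG box, and *Capn3*, *Myom3*, *Synpo2*, *Synpo2l* and *Ttn* the MEF2 box. CAGCTG was in windows of *Acta1*, *Capn3*, *Des*, *Lmod2*, *Mybpc1*, *Mybph*, *Pdlim3*, *Synpo2l*, *Tpm2* and *Tpm3*. A match of letters is a description and not a bound site. The windows of *Acta1* (chr8:123894726-123895025, minus strand), *Des* (chr1:75360042-75360341, plus strand), *Lmod2* (chr6:24597521-24597820, plus strand) and *Mybpc1* (chr10:88605103-88605402, minus strand) are shown, 5′ to 3′, since the first pair separated the genotypes and the other pair varied widely among mice of 1 genotype, with the matches in capitals. In *Acta1* these are CAGCTG at bases 30 to 35, the CArG box at 178 to 187, CATTCC at 205 to 210 and TATAAA at 244 to 249, and CAGCTG occurs 1 time in each of the others.
Acta1: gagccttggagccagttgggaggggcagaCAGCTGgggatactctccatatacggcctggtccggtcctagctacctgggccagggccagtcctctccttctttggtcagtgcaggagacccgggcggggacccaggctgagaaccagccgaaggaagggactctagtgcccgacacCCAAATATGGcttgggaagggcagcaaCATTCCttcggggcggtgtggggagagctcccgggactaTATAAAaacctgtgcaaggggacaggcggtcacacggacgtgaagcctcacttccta
Des: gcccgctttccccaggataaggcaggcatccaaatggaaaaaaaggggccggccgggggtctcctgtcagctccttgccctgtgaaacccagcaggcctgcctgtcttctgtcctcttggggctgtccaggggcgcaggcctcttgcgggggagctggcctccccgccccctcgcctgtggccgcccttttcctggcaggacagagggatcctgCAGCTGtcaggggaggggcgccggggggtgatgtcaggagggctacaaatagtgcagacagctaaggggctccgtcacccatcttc
Lmod2: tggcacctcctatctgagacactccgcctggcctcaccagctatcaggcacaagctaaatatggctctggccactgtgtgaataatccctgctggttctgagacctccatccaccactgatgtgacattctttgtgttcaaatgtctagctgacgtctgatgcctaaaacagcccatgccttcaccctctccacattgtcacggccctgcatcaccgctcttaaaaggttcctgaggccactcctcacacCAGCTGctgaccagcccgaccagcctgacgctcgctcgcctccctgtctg
Mybpc1: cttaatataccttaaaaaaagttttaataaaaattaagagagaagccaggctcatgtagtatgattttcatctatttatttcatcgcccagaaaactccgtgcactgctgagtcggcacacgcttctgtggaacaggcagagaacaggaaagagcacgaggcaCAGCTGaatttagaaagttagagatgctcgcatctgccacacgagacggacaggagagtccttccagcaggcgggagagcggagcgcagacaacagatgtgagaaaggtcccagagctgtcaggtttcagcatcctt

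Thick filament, titin and M-band genes numbered 8. Apart from *Ttn*, 6 were higher and 1 lower in KO by sign, with a median of 0.26 on the log2 scale. The median came to 0.019 when WT replicate 1 was left out, to 0.083 when WT replicate 8 was, and to 0.0069 after the correction for GC content described further on. Only *Mybph*, a myosin-binding protein, kept the genotypes apart. Its values were 3.92, 5.23 and 2.41 FPKM in WT mice 1, 7 and 8 against 11, 8.28 and 6.16 FPKM in KO mice 1, 7 and 8. Every KO library was above every WT library, with means of 3.85 ± 1.41 FPKM and 8.49 ± 2.44 FPKM (SD, n = 3). The log2 fold change of 1.15 ± 0.31 was among the largest of the set but did not pass (adjusted p = 0.0932). *Mybph* shares 1162 exonic bases with *Adora1* on the opposite strand, which was at 0.367 to 1.45 FPKM, and the sources used here do not say whether fragments were counted by strand. The fast myosin-binding protein *Mybpc2* ranged from 988 to 1858 FPKM, and its groups overlapped. The myomesins of the M-band overlapped too, *Myom1* at 234 to 293 FPKM and *Myom2*, typical of fast fibers, at 438 to 582 FPKM. *Capn3*, the titin-bound protease calpain-3, was the steadiest of the group at 58.8 to 68.0 FPKM.

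Z-disc genes numbered 14. KO lay above WT in every library for 7 of them (*Pdlim7*, *Flnc*, *Tcap*, *Myoz3*, *Fhl3*, *Ldb3* and *Synpo2*) and below for 1 (*Nexn*). These shares were 50% and 7.14%, beside 18.5% and 16.4% of all tested genes above 0 in every library. By sign 12 were higher and 2 lower, with a median of 0.23 on the log2 scale. After the correction for GC content described further on, the median was 0.18. *Pdlim7* (chromosome 13, 55495795 to 55513676, minus strand), a PDZ and LIM domain adaptor also called Enigma, was at 40.3, 68.0 and 92.2 FPKM in WT mice 1, 7 and 8 against 136, 167 and 131 FPKM in KO mice 1, 7 and 8. The KO mean was 2.17 times the WT mean (log2 fold change 1.19 ± 0.28, adjusted p = 0.0785). *Flnc* (chromosome 6, 29433256 to 29461883, plus strand), the actin cross-linker filamin C, was at 22.0, 32.1 and 26.7 FPKM in WT and 43.0, 67.2 and 59.7 FPKM in KO. Its KO mean was 2.10 times the WT mean (log2 fold change 1.06 ± 0.20, adjusted p = 0.0673). *Tcap* (chromosome 11, 98383811 to 98384953, plus strand), telethonin, which caps the end of titin in the Z-disc, was at 1178, 760.0 and 935 FPKM in WT and at 1662, 1895 and 1996 FPKM in KO. The groups were well apart, at 958 ± 209.9 and 1851 ± 171 FPKM (SD, n = 3; log2 fold change 0.97 ± 0.18, adjusted p = 0.0667). With the filter raised from a mean of 0.5 to 5 FPKM, limma called *Tcap* and *Flnc* besides *Tpm1* and *Ttn*, and the share of all genes called higher went from 0.251% to 2.35% (145 of 6164).

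The remaining separated Z-disc genes differed less. *Myoz3*, a calsarcin that binds calcineurin and α-actinin, averaged 30.3 ± 11.7 FPKM in WT and 48.6 ± 4.13 FPKM in KO. *Fhl3*, a LIM-domain protein, averaged 52.6 ± 2.07 and 68.0 ± 3.79 FPKM (SD, n = 3). *Ldb3*, which encodes the α-actinin partner ZASP, averaged 418 ± 55.4 and 479 ± 19.0 FPKM, and *Synpo2*, an actin-bundling Z-disc protein, 118 ± 2.52 and 128 ± 1.51 FPKM. *Synpo2* was separated because it hardly varied between mice, by a log2 fold change of only 0.11 ± 0.09. *Nexn*, the actin-binding nexilin, was lower in KO, at 225, 218 and 227 FPKM in WT and 176, 143 and 169 FPKM in KO (log2 fold change -0.46 ± 0.11, adjusted p = 0.0795). Among the 6 Z-disc genes whose groups overlapped were both α-actinins, *Actn3* at 1721 to 3179 FPKM and *Actn2* at 50.5 to 268 FPKM, as well as *Myot*, the actin-binding myotilin, at 443 to 584 FPKM and *Synpo2l* at 29.4 to 42.9 FPKM. *Pdlim3* and *Pdlim5* are described with the ratios.

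**Figure D2:**
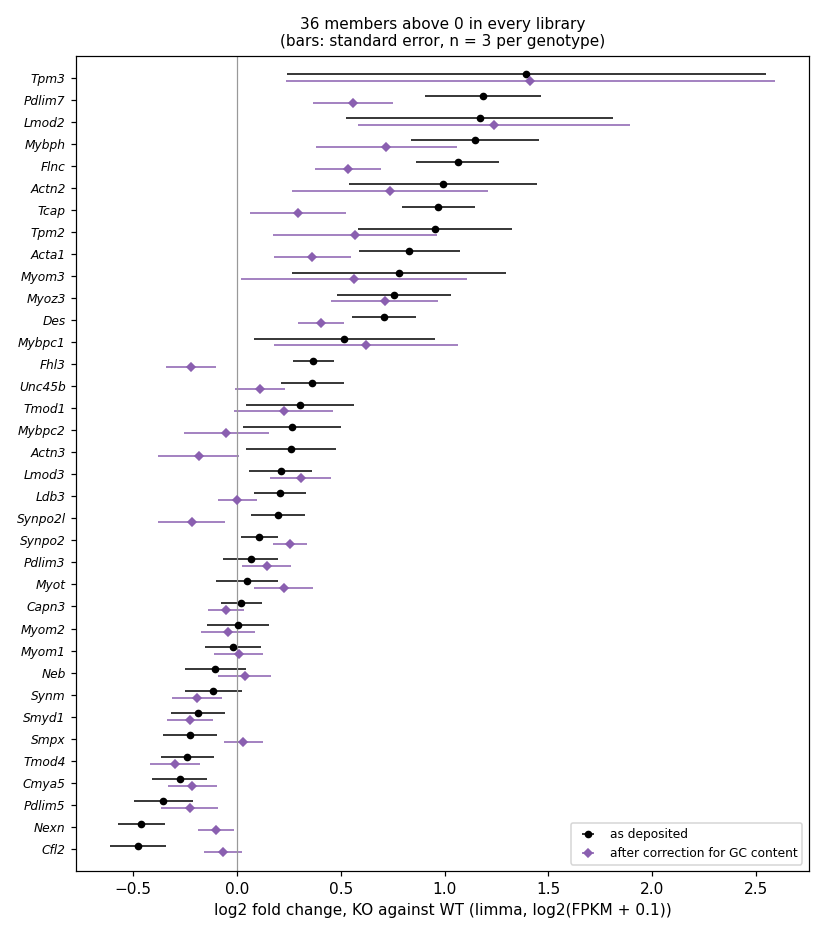
Log2 fold change, KO against WT, of the 36 genes above 0 in every library, ordered by fold change, with bars for the SE of the limma fit. Black circles are the values as deposited, and purple diamonds those after the correction for GC content described further on. As deposited, most genes sit above 0, *Tpm3* with the widest bar, while *Nexn* and *Cfl2* are the lowest.

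Of the 4 intermediate filament and costamere genes, desmin stood higher and its neighbours did not. *Des* (chromosome 1, 75360329 to 75368579, plus strand) was at 440.4, 556 and 646 FPKM in WT mice 1, 7 and 8 against 836, 869 and 948 FPKM in KO mice 1, 7 and 8. All KO libraries were above all WT libraries, with means of 547 ± 103 and 884 ± 57.3 FPKM (SD, n = 3; log2 fold change 0.71 ± 0.16, adjusted p = 0.0750). *Synm*, the synemin that forms filaments together with desmin, was at 198, 218 and 247 FPKM in WT and at 229.5, 177 and 206 FPKM in KO, with the groups overlapping. *Cmya5*, the costameric protein myospryn, was at 322, 336 and 391 FPKM in WT and 303, 249.9 and 314 FPKM in KO. *Smpx*, a small muscle protein of the costamere, was at 361, 342 and 316 FPKM in WT and 315, 248 and 311 FPKM in KO. For both, all KO libraries lay below all WT libraries, but *Smpx* only just, and neither passed (adjusted p = 0.230 and adjusted p = 0.297). The median of the 4 genes was -0.17 on the log2 scale, -0.065 without KO replicate 7, -0.11 without WT replicate 8 and -0.081 after the GC correction.

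Both assembly factors act in the folding and assembly of myosin. *Smyd1*, a muscle methyltransferase, was at 152, 178 and 187 FPKM in WT and at 167, 133 and 154 FPKM in KO. *Unc45b*, a myosin chaperone that works with Hsp90, was at 52.2, 64.9 and 75.0 FPKM in WT and at 84.0, 73.4 and 87.7 FPKM in KO. The groups overlapped for both, the fold change being -0.19 ± 0.13 for *Smyd1* and 0.36 ± 0.15 for *Unc45b* on the log2 scale.

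Ratios of related genes within a library do not depend on how the libraries were scaled, and 11 pairs were compared. The ratio did not overlap between the genotypes for 4 pairs. Each had an exact permutation p of 0.1, the smallest possible, and an adjusted p of 0.275 over the 11 pairs. Of all single genes above 0 in every library, 18.5% lay higher and 16.4% lower in all KO libraries. The share over other gene pairs was not computed, so the 4 pairs are given as a description. *Synm*/*Des* was 0.449, 0.392 and 0.383 in WT mice 1, 7 and 8 and 0.274, 0.203 and 0.218 in KO. *Smyd1*/*Unc45b* was 2.91, 2.74 and 2.49 in WT and 1.99, 1.81 and 1.75 in KO. Both ratios were lower in all KO libraries, by 0.82 and 0.55 on the log2 scale in the mean, and by 0.60 and 0.34 after the GC correction. *Pdlim3*/*Pdlim5*, a pair of Z-disc PDZ and LIM adaptors, was 0.462, 0.441 and 0.484 in WT and 0.653, 0.610 and 0.596 in KO. Behind it *Pdlim3* was at 151, 193 and 189.8 FPKM in WT and 185, 171 and 200.3 FPKM in KO, while *Pdlim5* was at 328, 438 and 392 FPKM and 284, 281 and 336 FPKM. Neither gene alone separated the genotypes, but their ratio did. *Tmod4*/*Tmod1*, the skeletal muscle tropomodulin against the more widely expressed one, was 10.8, 5.86 and 5.08 in WT and 4.5, 4.70 and 4.94 in KO, so that WT replicate 1 stood far above the rest, and the mean difference of -0.54 on the log2 scale was -0.21 without it. *Tmod1* was at 39.4, 67.0 and 79.96 FPKM in WT and 86.4, 63.4 and 72.1 FPKM in KO, and it shares 1287 exonic bases with *Tstd2* on the opposite strand, at 26.8 to 42.6 FPKM.

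The other 7 ratios overlapped. The fast fiber α-actinin against the more general one, *Actn3*/*Actn2*, was 15.2, 23.5 and 55.5 in WT and 36.6, 8.14 and 14.5 in KO. It differed more within each genotype than between them, the mean difference being -0.73 on the log2 scale against an SD of 0.95 in WT and 1.09 in KO. It was -0.22 without WT replicate 8 and -0.23 without KO replicate 7. *Myom2*/*Myom1* was the most even pair, at 1.85 to 1.95 in WT and 1.84 to 2.07 in KO.

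**Figure D3:**
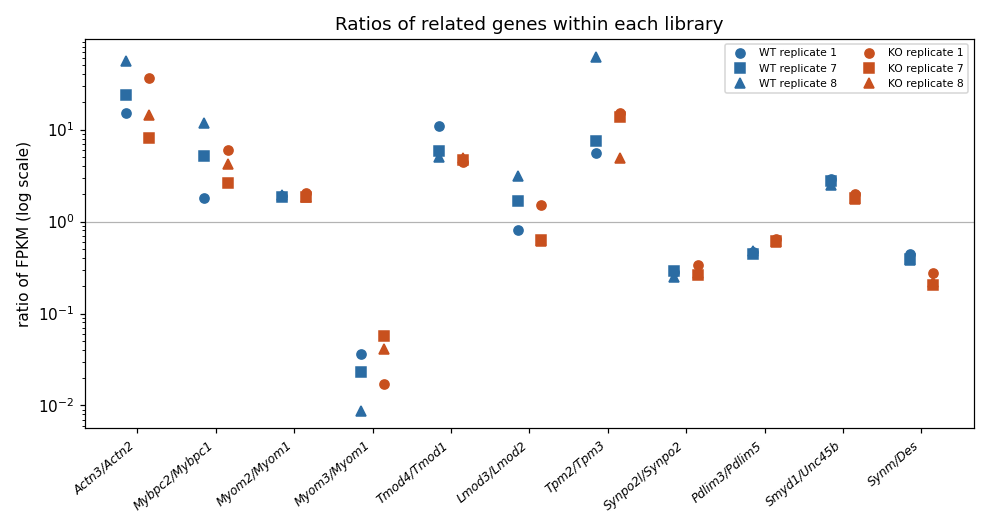
Ratio of the FPKM of the 11 related pairs within each library, on a log axis, WT in blue and KO in orange, 3 libraries of each. *Synm*/*Des*, *Smyd1*/*Unc45b*, *Pdlim3*/*Pdlim5* and *Tmod4*/*Tmod1* do not overlap between the genotypes, whereas *Tpm2*/*Tpm3* spreads widest within WT.

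The range within a genotype was often large beside the difference of the genotype means. For 26 of the 36 genes the range over the WT libraries exceeded the mean genotype difference, and for 10 genes it exceeded 1 on the log2 scale, against 5 genes in KO. A range over 3 libraries and a difference of means are unlike measures. Among the 26 were genes whose genotypes did not overlap, such as *Acta1*, *Pdlim7* and *Myoz3*. *Actn2*, *Lmod2*, *Myom3*, *Tpm2* and *Tpm3* passed that range in both genotypes. WT replicate 1 was the lowest of all libraries for 14 genes, WT replicate 8 and KO replicate 7 for 10 each. At the other end, 10 genes had a WT range under 0.3 on the log2 scale, among them *Capn3*, *Fhl3*, *Nexn*, *Synpo2* and *Tmod4*.

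The widest within-genotype spread, such as that of *Tpm3*, went with slow fiber genes, a pattern picked out after the values were seen. Not every wide range did so. *Pdlim7*, *Myoz3* and *Tmod1*, with WT ranges of 1.19, 1.19 and 1.02 on the log2 scale, were lowest in WT replicate 1, where slow fiber genes were highest among WT. The summed level of 9 slow fiber genes, led by the slow myosin light chain *Myl2*, was 826, 582 and 43.2 FPKM in WT mice 1, 7 and 8 against 308, 999 and 1699 FPKM in KO mice 1, 7 and 8. The slow myosin *Myh7* was at 24.3, 22.1 and 0.0513 FPKM in WT and 15.2, 50.5 and 77.4 FPKM in KO. Slow transcripts were thus nearly missing from WT replicate 8. In bulk muscle, fewer slow fibers in the tissue taken and less RNA per slow fiber cannot be told apart. The source of the spread among mice was not tested. All 9 slow genes had a higher mean in KO (median 1.63 on the log2 scale), none was called, and the genotypes overlapped for each of them. Without WT replicate 8 the median was 0.043, with 6 of the 9 higher and *Atp2a2*, *Casq2* and *Myh7b* lower.

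*Tpm3*, the slow tropomyosin, was at 191, 128 and 8.24 FPKM in WT and at 65.6, 175 and 321 FPKM in KO, an order that differed from that of the slow sum only in that WT replicate 1 stood above KO replicate 7. Its log2 fold change of 1.39 ± 1.15 turned to -0.02 without WT replicate 8. *Lmod2*, a leiomodin that elongates thin filaments, was at 65.3, 25.6 and 11.6 FPKM in WT and 30.8, 86.8 and 82.9 FPKM in KO. *Actn2*, the α-actinin made in all fiber types, was at 113, 102 and 50.5 FPKM in WT and 86.9, 268 and 197 FPKM in KO. In each of these genes WT replicate 8 was lowest and KO replicate 1 lay within the WT values. *Tpm2*, the tropomyosin of both fiber types, was at 1061, 959.8 and 514 FPKM in WT and 995, 2382 and 1599 FPKM in KO. *Mybpc1*, the slow myosin-binding protein, was at 545, 297 and 148 FPKM in WT and 310.2, 511 and 443 FPKM in KO. *Myom3*, the myomesin of slower fibers, was at 8.48, 6.72 and 2.58 FPKM in WT and 4.8, 13.6 and 11.8 FPKM in KO.

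With the log2 slow sum added to the limma fit as a term, a setting chosen after the data were seen, the fold changes of these genes came to -0.20 for *Tpm3*, 0.37 for *Lmod2*, 0.47 for *Actn2*, 0.53 for *Tpm2*, -0.02 for *Mybpc1* and 0.12 for *Myom3*. Without the term they were 1.39, 1.17, 0.99, 0.95, 0.52 and 0.78. These genes were picked for varying with the slow sum in the same libraries. Their smaller fold changes under the term follow from that choice and are a description only. Leaving out WT replicate 8, with no such term, gave 0.57 for *Lmod2*, 0.63 for *Actn2*, 0.63 for *Tpm2*, 0.036 for *Mybpc1* and 0.28 for *Myom3*. For genes that separated the genotypes the fold change under the term was 0.91 for *Tcap*, 1.00 for *Flnc*, 1.44 for *Pdlim7*, 0.81 for *Des* and 0.99 for *Acta1*. The median of the 36 genes was 0.12 with the term.

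**Figure D4:**
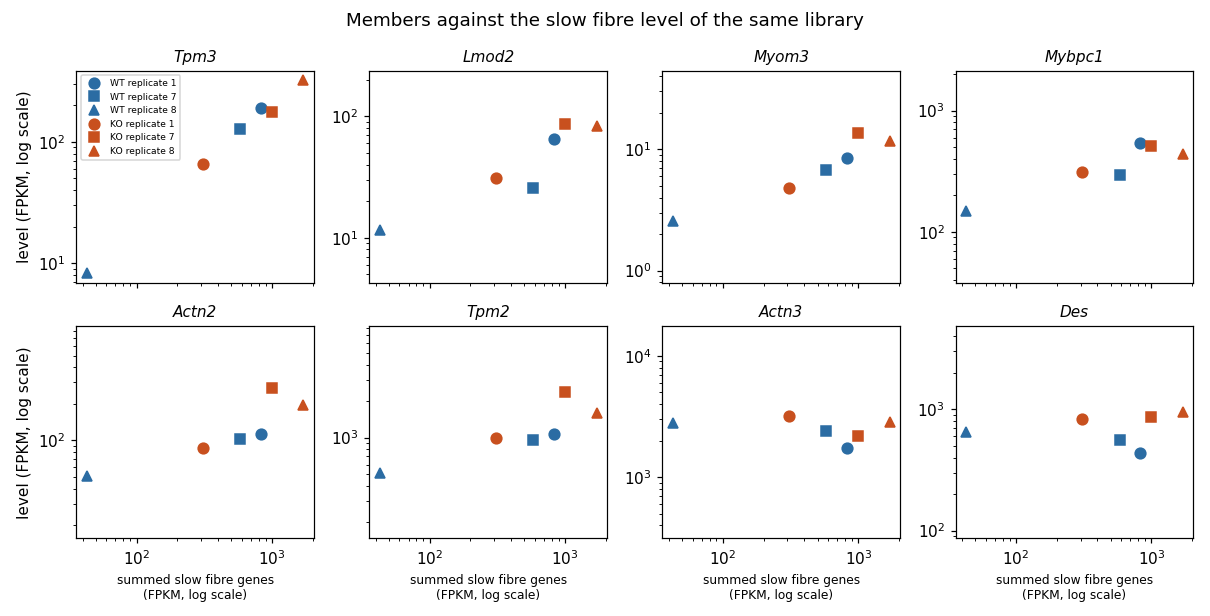
Level of 8 of the genes in each library against the summed level of the slow fiber genes, both in FPKM on log axes. WT libraries are blue and KO libraries orange. *Tpm3* climbs with the slow sum over both genotypes, from 8.24 FPKM in WT replicate 8 to 321 FPKM in KO replicate 8, whereas *Des* lies higher in each KO library than in any WT library.

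The base composition of the transcripts also moved with the fold change. Across the 36 genes the Spearman correlation of GC content with the log2 fold change was 0.63, and across 11775 tested genes with a known GC content it was 0.72. These are correlations across genes measured in the same 6 libraries and are given as a description. All 13 genes of at least 54% GC were higher in KO, with a median of 0.83 on the log2 scale, where all tested genes in that range had 0.43 (3037 higher, 284 lower). The 9 genes below 48% GC had a median of -0.10, 4 being higher and 5 lower, and all tested genes there had -0.23. The 14 genes between had 0.042, beside 0.050 for all. *Tcap* (61.3% GC), *Pdlim7* (60.3%), *Fhl3* (59.6%) and *Flnc* (58.4%) were thus at the rich end, and *Nexn* (39.99%) and *Cfl2* (38.2%) at the poor end.

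After each library's trend with GC content was subtracted, the median of the 36 genes was 0.13, beside 0.003 for all genes, and 5 were higher and 1 lower at an unadjusted p under 0.05 (13.9% and 2.78%, beside 5.73% and 5.37% of all genes). On the log2 scale *Pdlim7* went from 1.19 to 0.56 ± 0.19, *Flnc* from 1.06 to 0.53 ± 0.16 and *Des* from 0.71 to 0.40 ± 0.11. *Myoz3* hardly moved, from 0.76 to 0.71 ± 0.26, and *Synpo2* grew from 0.11 to 0.26 ± 0.08. *Tcap* went from 0.97 to 0.29 ± 0.23, *Nexn* from -0.46 to -0.10 ± 0.09 and *Cfl2* from -0.48 to -0.07 ± 0.09. *Fhl3* turned from 0.37 ± 0.10 to -0.22 ± 0.12. *Acta1* came to 0.36 ± 0.18 and *Mybph* to 0.72 ± 0.34. The part of GC content in these differences was not tested beyond this correction.

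**Figure D5:**
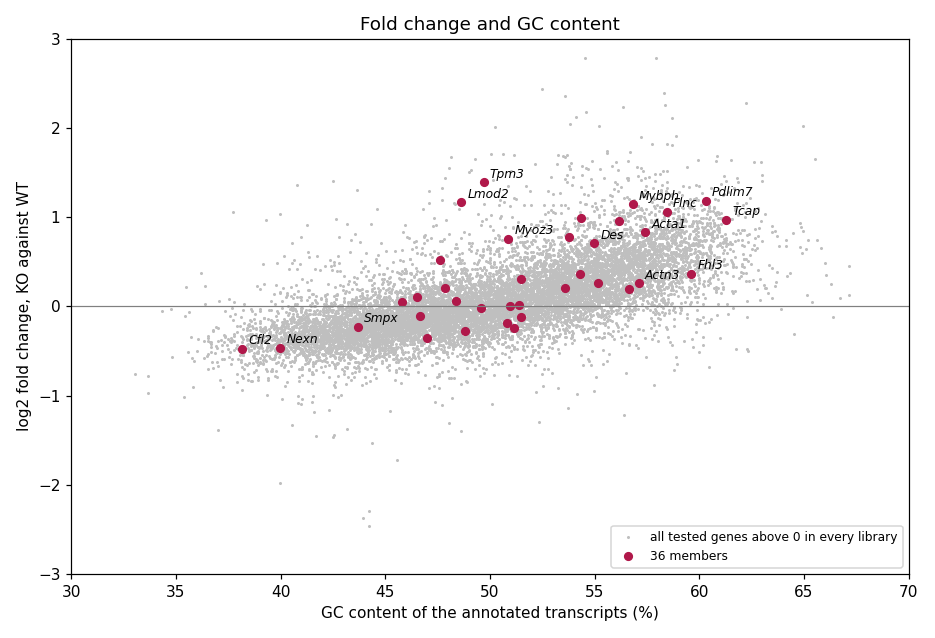
Log2 fold change, KO against WT, against the GC content of the annotated transcripts (%), for the 36 genes (red) and all tested genes above 0 in every library (grey, of which 4 fall outside the axes). The red points follow the slope of the grey ones, from *Cfl2* and *Nexn* at the poor end to *Pdlim7* and *Tcap* at the rich end.

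The other genes of the same structure, a list of 43 of which 41 entries were tested, had no call. By sign 32 were higher and 9 lower, with a median of 0.47 on the log2 scale and 0.14 after the GC correction. KO lay above WT in all libraries for 10 (24.4%) and below for 2 (4.88%), the actin-capping subunits *Capza1* and *Capza2*, where 18.5% and 16.4% of all genes did so. The largest of these differences was that of *Trim54*, a microtubule-associated ubiquitin ligase of the Z-disc and M-band, at 56.7 ± 23.7 FPKM in WT and 136 ± 3.76 FPKM in KO (SD, n = 3; log2 fold change 1.35 ± 0.28, adjusted p = 0.0708). *Ankrd1*, a titin-binding stretch-responsive protein, averaged 1.26 ± 0.232 FPKM in WT and 2.98 ± 0.747 FPKM in KO. *Plec*, which encodes the cytolinker plectin that anchors desmin, averaged 18.2 ± 4.76 and 32.7 ± 2.07 FPKM. The kinase-related genes *Alpk3* and *Speg* and the titin-binding *Ankrd23* followed, with log2 fold changes of 0.78, 0.68 and 0.67, none passing the test. After the GC correction *Ankrd1* was at 1.28, *Trim54* at 0.74 and *Plec* at 0.21, while *Speg* was at -0.05.

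Markers of other cells in the dissected muscle were compared because *Flnc*, *Des*, *Synpo2* and *Pdlim7* are also made in smooth muscle. None of the markers was called. Of 7 tested vascular smooth muscle markers 5 were higher by sign, 3 of them at an unadjusted p under 0.05 in limma (42.9%). Their summed level was 82.7 to 106 FPKM in WT and 86.5 to 111 FPKM in KO. Adipocyte markers were higher by sign for 5 of 5, 3 of them at an unadjusted p under 0.05 (60%). Their summed level was 233 to 440.1 FPKM in WT and 298 to 593 FPKM in KO. Of all genes above 0 in every library, 15.5% were higher at that threshold. After the GC correction 2 smooth muscle (28.6%) and 3 adipocyte markers (60%) were, beside 5.73% of all genes. Fibroblast and tendon markers summed to 421 to 630.0 FPKM in WT and 418 to 634 FPKM in KO, mostly *Dcn* (400 and 358 FPKM in the mean). By sign 6 of these 8 were higher and 2 lower. *Col1a1* (6.32 and 17.3 FPKM) and *Thbs4* (28.3 and 49.8 FPKM) were higher at an unadjusted p under 0.05 in limma (25%). After the GC correction 0 were, and none of the 8 separated the genotypes. Endothelial markers summed to 36.2 to 39.2 and 34.7 to 46.3 FPKM, and Schwann cell markers to 27.4 to 102 and 31.3 to 131 FPKM. Leukocyte markers summed to 2.25 to 6.79 FPKM in WT and 4.93 to 10.7 FPKM in KO, and cardiac markers to 4.17 to 17.1 and 4.52 to 17.4 FPKM. The summed levels overlapped between the genotypes for every list, but some single markers did not. KO lay above WT in all libraries for 3 smooth muscle markers (42.9%) and 2 adipocyte markers (40%), beside 18.5% of all genes. KO lay below WT for 1 smooth muscle marker (14.3%), beside 16.4% of all genes. *Tagln*, at 8.49 FPKM in WT and 14.2 FPKM in KO in the mean, *Acta2*, at 11.7 and 19.3 FPKM, and *Myh11*, at 2.44 and 3.79 FPKM, all of them smooth muscle contractile genes, lay higher in each KO library than in any WT library, while the pericyte gene *Rgs5*, which made up the largest share of that sum, lay lower in each (54.2 and 42.4 FPKM). Of the adipocyte markers, whose median fold change was 1.65 on the log2 scale, *Plin1* (0.276 and 3.29 FPKM) and *Cfd* (10.8 and 47.2 FPKM) separated the genotypes in the same way as *Tagln*, while *Fabp4*, which made up most of the sum, overlapped. Their part in the differences of the structural genes was not tested.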

How the data were processed

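RNA of the GAS muscles of 3 WT and 3 KO mice was sequenced by the authors. Their read alignment used TopHat and GRCm38, and Cufflinks gave the FPKM. Tool versions and the annotation release are not given in the sources used here. The deposited FPKM of 37979 genes in 6 libraries were used as they stood. No counts were tested. Groups came from the sample labels. The set of 38 genes, its role groups, the pairs and the other lists were chosen with earlier results of these data known, so their direction is not independent evidence. The lists were the other sarcomere genes, fast and slow fiber genes, and markers of vascular smooth muscle, fibroblasts and tendon, adipocytes, endothelium, Schwann cells, leukocytes and heart.

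Depth was estimated from low FPKM of genes with 1 transcript of 1500 to 6000 bases, which fell within 0.15 of whole fragments for 90.9% to 95.3% of values. Genotypes were compared by limma 3.58.1 (R 4.3.3) with a variance trend, on log2(FPKM + 0.1), a scale that understates the change of low genes. The 12334 genes averaging 0.5 FPKM or more entered the fit, with Benjamini-Hochberg adjustment. The limma p-values set the genotype difference against the spread between libraries, 1 per mouse, with a variance moderated over all tested genes. That spread holds differences between mice together with those of dissection and library making. Members were named with values in every library where they were called, listed at 0, among the 3 largest non-overlapping fold changes of a role group or part of a separated pair. Up to 6 other sarcomere genes were named by the same order. Genes tied to the slow sum, and those quoted with GC content, were picked after their values were seen. Positions and GC content came from GENCODE vM21, which held 32916 of the gene identifiers. For the GC correction, a loess curve (span 0.3) against GC content was fitted to the difference between a library and the mean library, and subtracted. The limma steps were tested on simulated data. Figures were drawn with matplotlib 3.10.9.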

Additional observations from a re-analysis of the deposited data

How the results depend on the processing

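Without each library in turn, *Tpm1* and *Ttn* were called (2 higher and 0 lower of the 38 genes), which their 0 values in all WT libraries make almost certain and which shows no stability. Among the 38 genes, 4 were called higher with a filter at a mean of 5 FPKM, 0 with genes listed at 0 in any library left out, and 11 higher and 3 lower with array weights. The number of all genes called higher, 31, was 7 with a pseudocount of 1, 9 with no filter, 145 at a mean filter of 5 FPKM, 1 with genes at 0 left out, 11 with quantile normalization, 1863 with array weights, 12 with no variance trend, 6 with the GC correction, 11 with a length correction and 16 with the slow fiber term, which was chosen after seeing the data. Without 1 library it was 6 to 103, highest without WT replicate 8. The number called lower, 9, was 4 with a pseudocount of 1, 22 at a mean filter of 5 FPKM, 0 with genes at 0 left out and 1284 with array weights, and 6 to 23 without 1 library, again highest without WT replicate 8. With genes at 0 left out, 3251 genes had an unadjusted p under 0.05 in limma. The cause of these shifts was not tested. Deviations from the group means gave no sign that replicate numbers paired the mice. They correlated at -0.025, -0.08 and 0.034 for the numbers 1, 7 and 8, and at -0.066 to 0.086 for unlike numbers. The labels do not say what the numbers mean, and such correlations cannot exclude a pairing. With a replicate block, 6 of all genes were called higher, and 5 with the replicate block and GC correction together, and 2 of the 38 genes under either.

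The median of the 36 genes was 0.13 with the GC correction, with or without the block, 0.12 with the slow fiber term, and 0.12 to 0.31 without 1 library. The thick filament group's median was 0.069 with quantile normalization, 0.0069 with the GC correction, with or without the block, and 0.019 to 0.36 without 1 library. The thin filament group's was 0.066 with the slow fiber term and 0.082 to 0.41 without 1 library. Of the other sarcomere genes, 3 were called higher at a mean filter of 5 FPKM, 10 higher and 1 lower with array weights, 1 higher with the slow fiber term and 0 to 1 without 1 library, and their median was 0.14 with the GC correction. The GC correction, with or without the block, reversed *Actn3* to -0.19, *Fhl3* to -0.22, *Mybpc2* to -0.053, *Synpo2l* to -0.22 and *Smpx* to 0.030, the *Myom2*/*Myom1* ratio to -0.050 and the *Synpo2l*/*Synpo2* ratio to -0.47. Quantile normalization reversed *Actn3* to -0.22, the length correction *Myom2*/*Myom1* to -0.0039, and the slow fiber term *Tpm3* to -0.20 and *Mybpc1* to -0.021. Without 1 library, *Tpm3* was -0.016 to 2.24, *Mybpc2*/*Mybpc1* -0.96 to 0.40, *Myom2*/*Myom1* -0.029 to 0.057, *Synpo2l*/*Synpo2* -0.019 to 0.16 and *Tpm2*/*Tpm3* -1.09 to 0.64. These reversed values came from differences below the test's threshold. The smallest depth behind a value of a gene above 0 throughout was about 112 fragments (*Mybph* in WT replicate 8).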
